A study of Mus musculus with 8 samples.

Results

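Respiratory complex I (NADH:ubiquinone oxidoreductase) is the entry point for electrons from NADH into the mitochondrial respiratory chain. Its peripheral arm holds the N module, which binds NADH and FMN, and the Q module, which passes electrons through iron-sulfur clusters to ubiquinone, while its membrane arm pumps protons. Most subunits are encoded in the nucleus under Nduf symbols, a core set of the membrane arm is encoded in mitochondrial DNA, and assembly factors build the complex without staying in it. In skeletal muscle the complex feeds much of the oxidative production of ATP.

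The complex I genes were taken as all array probes, other than controls, whose gene name begins with Nduf, with the names that begin with Ndufaf set apart as assembly factors. This gave 70 probes of 56605 and 45 gene names of 37074. They comprised 36 subunits (55 probes), 7 assembly factors (12 probes) and Ndufa4 and Ndufa4l2 (3 probes), which carry the prefix but are kept apart because Ndufa4 is now assigned to cytochrome c oxidase and Ndufa4l2 is its paralog. The filter on dim spots left 63 of the 70 probes, and with them all 36 subunits and all 7 assembly factors. The subunits Ndufb1 and the assembly factor Ndufaf8 had no probe under those names, although the symbol 1810043H04Rik on the array is an older name of Ndufaf8.

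RNA came from proliferating cultures of C2C12, a mouse myoblast line, at passage 10. The 4 silenced cultures received LNA GapmeRs against Pvt1, antisense oligonucleotides that direct cleavage of their target RNA, and the 4 control cultures received negative control GapmeRs, with a lipid transfection reagent in both groups. The labels list a pair of Pvt1 GapmeRs (Pvt1_1 and Pvt1_3) and do not tell which went into which culture. Each culture was hybridised to 1 one-colour Agilent array, and all values below are log2 normalized signals unless called a change, which is the silenced mean minus the control mean on that scale.

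Pvt1, the targeted RNA, fell in every silenced culture. Its brightest probe read 9.65, 9.79, 10.31 and 9.70 in controls 1 to 4 and 7.09, 6.69, 7.85 and 6.39 in silenced cultures 1 to 4, a change of -2.86 (SE 0.32, limma adjusted p 0.000682). Between 51.6% and 62.5% of spots were positive and significant, the lowest share being that of silenced replicate 4, and control replicate 3 had the lowest mean correlation with its group (0.960). The labelled cell type was checked on markers. Myod1, Des, Cdh15 and Vim were well above background on all 8 arrays, while Myf5 was not on any. Of these 5 myoblast markers, 3 were called lower and 0 higher, against 14.0% and 5.99% of all genes. They were Myod1 (-1.95, limma adjusted p 0.00130), Des (-1.35, 0.00374) and Cdh15 (-0.86, 0.0141). Vim (-0.17, 0.561) and the dim Myf5 (0.94, 0.053) did not pass. Of 5 differentiated muscle markers tested, 1 was called lower, Acta1 (-1.88, limma adjusted p 0.00128), and 0 higher. Of 8 liver markers, Alb, Mup1, Serpina1a, Fgb and Trf were well above background on 0 control arrays and on all 4 silenced arrays, Ttr on 0 and 3, Apoa1 on none and Apoa2 on all 8. Their part in the values below was not tested.

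Of the 36 subunits encoded in the nucleus, 1 passed the test. Ndufa8 rose, no subunit fell, and 30 of the 36 had a change above 0. In such bulk RNA a smaller share of cells that express a gene and less RNA per cell cannot be told apart. The median change of the subunits was 0.24, against -0.09 for all 19360 genes tested. Among all genes, each represented by its brightest probe, 5.99% were called higher and 14.0% lower at a limma adjusted p under 0.05. At an unadjusted p under 0.05, 6 subunits were higher and 0 lower, against 11.4% and 21.6% of all genes. The groups did not overlap in 3 subunits that were higher (Ndufa8, Ndufs5 and Ndufb9) and in 1 that was lower (Ndufs4), and the corresponding shares of all genes were 7.10% and 18.9%.

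The number of called subunits depended on the normalization. Cyclic loess called 16 of 36 subunits higher and 0 lower, with 22.1% of all genes higher and 14.3% lower, and its subunit median was 0.40 against 0.11 for all genes. Subtracting each array's median called 23 higher and 0 lower, with 21.5% and 12.8% of all genes. Without silenced replicate 4, the dimmest array, 6 subunits were called higher and 0 lower, with 15.5% and 13.9% of all genes.

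**Figure D1:**
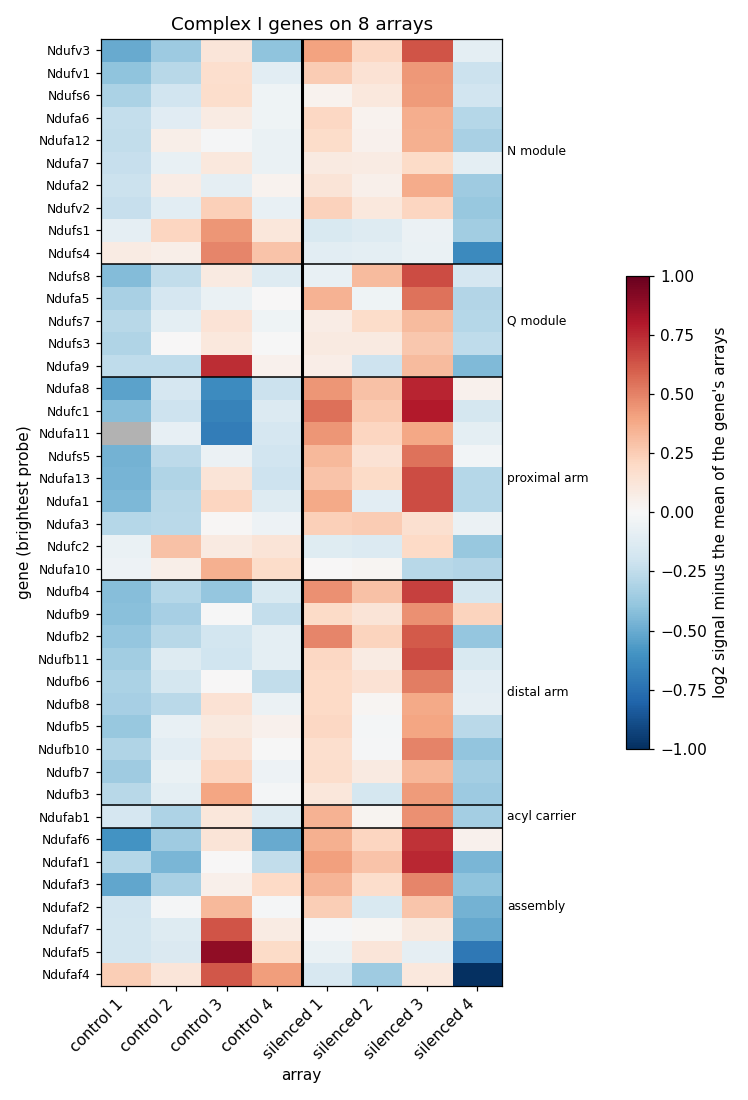
Log2 signal of the brightest probe of the complex I subunits shown and 7 assembly factors (rows, grouped by module) on 8 arrays (columns), shown as the difference from the gene's mean over its arrays; grey marks a spot left out. Most subunits are above their mean in silenced replicates 1 to 3 and below it in controls 1, 2 and 4 and silenced replicate 4.

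The pattern by array is seen in the medians. The median deviation of the subunits from their own means was -0.32, -0.17, 0.10 and -0.06 in controls 1 to 4 and 0.20, 0.09, 0.41 and -0.28 in silenced cultures 1 to 4. These groups overlapped, with silenced replicate 4 below 3 of the controls and silenced replicate 2 just below control 3. The median of all genes on that array was also low, at -0.55. After subtracting the median of all genes on the same array, the subunits stood at -0.20, -0.26, -0.06 and -0.16 in controls and 0.12, 0.04, 0.21 and 0.28 in silenced cultures, without overlap. Within the upper row of the slide (3 controls, 1 silenced) this relative median was higher by 0.29 in silenced cells, and within the lower row (1 control, 3 silenced) by 0.34.

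**Figure D2:**
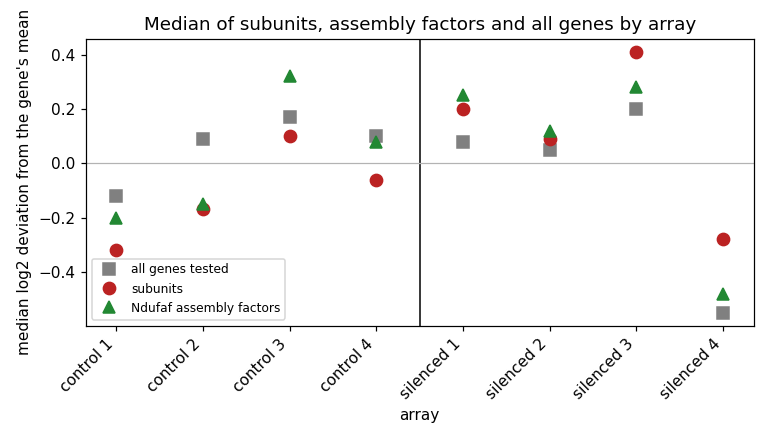
Median log2 deviation from each gene's mean over its arrays (y) for all genes tested (squares), the 36 subunits (circles) and the 7 Ndufaf assembly factors (triangles) on each array (x). The subunits lie below all genes on every control array and above them on every silenced array.

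Probe sequences are given for Ndufv1, Ndufa3 and Ndufv3, whose probe nearest the 3′ end holds a polyadenylation signal, since probes with that signal are compared below. The array holds 60-base probes in the sense of the transcript. Positions count from the start of the transcript that each probe was designed on, and coordinates are those of the files, on build mm9. Of the 3′ probes only 30 bases are printed, with the polyadenylation signal (AATAAA, or ATTAAA in other probes) in capitals, and whether a probe lies in coding sequence or a UTR was not analysed here.
Ndufv1 at 887: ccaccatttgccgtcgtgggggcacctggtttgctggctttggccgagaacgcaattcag
Ndufv1 at 1539, probe bases 25 to 54: gggaaactggacAATAAAcaagtgctgtcc
Ndufa3 at 110: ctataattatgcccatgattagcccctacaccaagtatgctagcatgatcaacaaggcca
Ndufa3 at 280, probe bases 31 to 60: ctgttgctctccAATAAAaatgtgaaaact
Ndufv3 at 1517, probe bases 31 to 60: cttgcctgtgagAATAAAaggcagagtcac

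The Ndufv1 probes lie on chromosome 19, from 4008693 to 4008752 and from 4007508 to 4007567. Ndufa3 is probed on chromosome 7, from 3571032 to 3571091 and from 3571695 to 3571754, and Ndufv3 on chromosome 17, from 31668209 to 31668268.

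The N module held 10 members, of which none was called. Their median change was 0.13, 8 were above 0, and the range ran from -0.46 (Ndufs4) to 0.57 (Ndufv3). Ndufv1, the subunit that binds FMN and NADH, read 14.11, 14.24, 14.68 and 14.41 in controls and 14.77, 14.66, 14.95 and 14.30 in silenced cells at its brightest probe. The change of 0.31 (SE 0.22, limma adjusted p 0.350) was within the spread, and the groups overlapped. Ndufv2, which carries an iron-sulfur cluster beside Ndufv1, read 13.97, 14.10, 14.44 and 14.13 against 14.43, 14.31, 14.42 and 13.82, a change of 0.09 (SE 0.22). Ndufs1, which carries further iron-sulfur clusters of the arm, read 13.73, 14.03, 14.26 and 13.93 in controls and 13.66, 13.69, 13.76 and 13.47 in silenced cells. Its change was -0.34 (SE 0.19, limma adjusted p 0.233), with silenced replicate 3 just above control 1.

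Ndufs4, an accessory subunit that holds the N module in place and whose loss causes a Leigh-like disease in mice, had the lowest change of all subunits. It read 13.67, 13.65, 14.08 and 13.87 in controls and 13.48, 13.49, 13.52 and 12.95 in silenced cells. No silenced value reached a control (exact two-sided permutation p 0.0286, the smallest that 4 against 4 arrays allow), but the change of -0.46 (SE 0.21) did not pass (limma adjusted p 0.153). Ndufv3, a small accessory subunit, read 13.51, 13.65, 14.13 and 13.61 against 14.41, 14.22, 14.64 and 13.91, a change of 0.57 (SE 0.23, limma adjusted p 0.107). Only silenced replicate 4 fell within the control range. Ndufs6, Ndufa2, Ndufa6, Ndufa7 and Ndufa12 had changes between 0.10 (Ndufa2) and 0.19 (Ndufs6).

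In the Q module, 0 of 6 members were called, the median change was 0.19 and 5 were above 0. Ndufs7, which carries the iron-sulfur cluster next to the ubiquinone site, read 14.14, 14.32, 14.55 and 14.37 in controls and 14.49, 14.60, 14.73 and 14.13 in silenced cells, a change of 0.14 (SE 0.20) with overlap between the groups. Ndufs3, another core subunit, read 14.07, 14.37, 14.47 and 14.36 against 14.46, 14.46, 14.64 and 14.11, a change of 0.10 (SE 0.20). Ndufs8, which carries iron-sulfur clusters, read 13.64, 13.83, 14.17 and 13.95 against 14.00, 14.39, 14.73 and 13.91, the highest change of the module at 0.36 (SE 0.24, limma adjusted p 0.314). Ndufa9 had the lowest. It read 12.48, 12.48, 13.47 and 12.78 in controls and 12.80, 12.53, 13.05 and 12.29 in silenced cells (-0.14, SE 0.28), and its direction turned with the normalization, since cyclic loess gave 0.03. Across the 7 core subunits encoded in the nucleus, 0 were called and the median change was 0.14.

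The proximal membrane arm, next to the peripheral arm, held the called subunit and a median change of 0.42 over 9 members. Ndufa8, a subunit of the face toward the intermembrane space that carries twin cysteine motifs, read 12.27, 12.64, 12.18 and 12.59 in controls and 13.25, 13.10, 13.57 and 12.85 in silenced cells. Every silenced value was above every control, with a change of 0.77 (SE 0.22, limma adjusted p 0.0333, exact two-sided permutation p 0.0286). Its probe lies on chromosome 2 from 35891871 to 35891930. The call did not hold with the slide row as a block (0.73, adjusted p 0.136), with values of 0.89 in the upper row and 0.58 in the lower, and leaving out any array but silenced replicate 4 brought the adjusted p to between 0.0550 and 0.0815.

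Ndufs5, another twin cysteine subunit of that face, also stood higher without overlap, at 14.18, 14.39, 14.60 and 14.46 in controls and 14.98, 14.80, 15.20 and 14.63 in silenced cells, but did not pass (0.49, SE 0.20, limma adjusted p 0.112). Ndufc1 had a change of 0.72 (SE 0.25, limma adjusted p 0.0673). Ndufa10, an accessory subunit related to nucleoside kinases, had the lowest change of the arm. It read 14.03, 14.14, 14.44 and 14.27 against 14.09, 14.10, 13.81 and 13.79 (-0.28, SE 0.19, limma adjusted p 0.336), so that silenced replicates 3 and 4 lay below all controls and the other two did not. Ndufc2 stood at -0.22, and Ndufa1, Ndufa3, Ndufa11 and Ndufa13 between 0.29 (Ndufa3) and 0.55 (Ndufa11), for which control 1 had no value.

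The distal membrane arm held 10 Ndufb members with a median change of 0.32, and 0 were called. Ndufb4, an accessory subunit, had the highest change, reading 14.21, 14.35, 14.25 and 14.48 in controls and 15.09, 14.93, 15.32 and 14.46 in silenced cells (0.63, SE 0.22, limma adjusted p 0.0717). Silenced replicate 4 alone fell within the control range. Ndufb9 read 14.89, 14.98, 15.31 and 15.07 against 15.50, 15.44, 15.77 and 15.53, a change of 0.50 (SE 0.19, limma adjusted p 0.0888) without overlap. Ndufb3 was level between the groups, at 12.91, 13.09, 13.58 and 13.17 against 13.30, 13.01, 13.61 and 12.82 (0.00, SE 0.24). The other seven had changes between 0.13 (Ndufb7 and Ndufb10) and 0.47 (Ndufb2). Ndufab1, the mitochondrial acyl carrier protein, which is built into both arms, had a change of 0.25 (SE 0.23). Several of these genes have near-identical copies or pseudogenes, among them Ndufb4, Ndufs5, Ndufs6, Ndufa11, Ndufa12, Ndufab1 and Ndufc2, and their probes may read more than 1 locus.

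**Figure D3:**
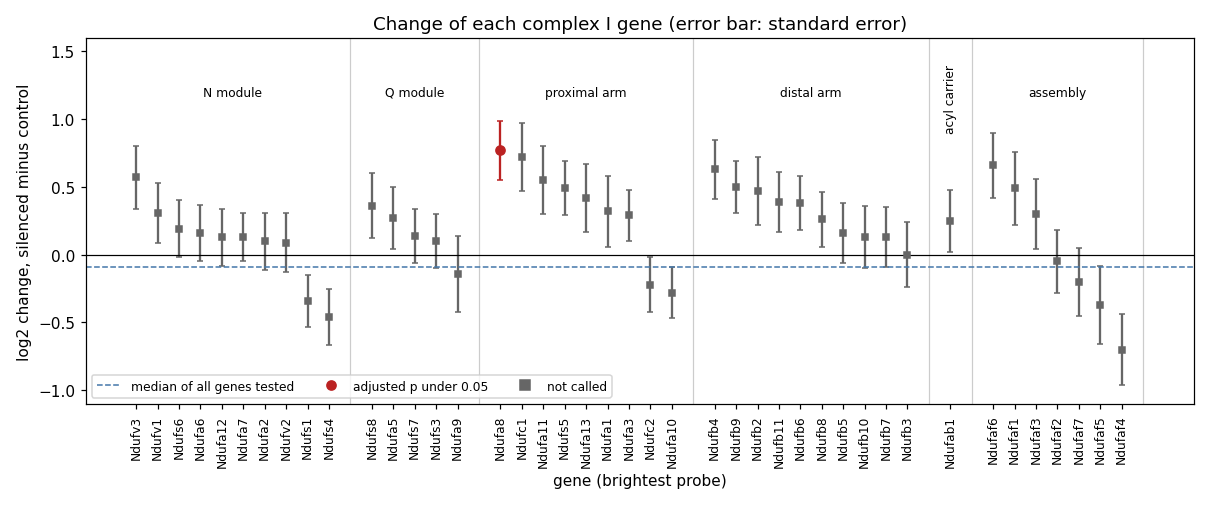
Log2 change of the brightest probe of each gene (y, silenced minus control, error bars standard errors, n = 4 arrays per group but 3 controls for Ndufa11) for the complex I subunits shown, by module, and 7 assembly factors (x). Ndufa8 is the gene called at an adjusted p under 0.05, most subunits are above 0, and the dashed line marks the median of all genes tested, -0.09.

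The Ndufaf assembly factors were split in direction. Of 7, none was called by limma, 3 had a change above 0, and the median was -0.05, a sign that turned with the normalization (0.08 with cyclic loess, 0.19 with array medians subtracted). At an unadjusted p under 0.05, 1 was higher and 1 lower by limma, against 11.4% and 21.6% of all genes, and 1 and 0 by the methods' t-test, against 9.95% and 19.6%. Ndufaf6, a factor needed early in assembly, read 9.88, 10.12, 10.61 and 9.97 in controls and 10.83, 10.69, 11.20 and 10.52 in silenced cells (0.66, SE 0.24, limma adjusted p 0.0732). Control 3 overlapped with silenced replicate 4. Ndufaf4, which works on the Q module together with Ndufaf3, read 11.57, 11.44, 11.94 and 11.74 against 11.16, 10.97, 11.43 and 10.33, without overlap (-0.70, SE 0.26, limma adjusted p 0.0832, exact two-sided permutation p 0.0286).

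Ndufaf1, which forms an assembly complex with Ecsit and Acad9, had a change of 0.49 (SE 0.27), and Ndufaf3 one of 0.30 (SE 0.26). Ndufaf2, a paralog of Ndufa12, stood at -0.05 (0.08 with cyclic loess), Ndufaf7, a methyltransferase, at -0.20, and Ndufaf5, a hydroxylase that modifies Ndufs7, at -0.37. Cyclic loess called 3 of the 7 higher (Ndufaf1, Ndufaf3 and Ndufaf6) and 1 lower (Ndufaf4). The probe named 1810043H04Rik, for Ndufaf8, had a change of 0.41 (SE 0.26, limma adjusted p 0.283).

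Of 11 further assembly factors tested under other names, 0 were called higher and 1 lower, against 5.99% and 14.0% of all genes. Their median change was 0.30, and 9 had a change above 0, against 44% of all genes. Timmdc1, a membrane arm assembly factor, read 11.01, 11.60, 10.28 and 11.55 in controls and 9.86, 10.37, 9.06 and 9.35 in silenced cells (-1.45, SE 0.37, limma adjusted p 0.0209). Control 3 overlapped with silenced replicate 2, and 12 of 19 alternatives kept the call, the slide row as a block giving an adjusted p of 0.0615. Ecsit and Acad9 each had a change of 0.52, the limma adjusted p being 0.141 and 0.125.

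Ndufa4 was set by 1 array. It read 14.37, 14.48, 10.82 and 14.53 in controls and 14.87, 14.54, 15.05 and 14.21 in silenced cells, so that control 3 lay far below the other seven arrays. The change of 1.12 (SE 0.75, limma adjusted p 0.316) became 0.21 (SE 0.24) without it. Neither probe of Ndufa4l2 was well above background on any array, and neither was tested.

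Probes of the same gene differed in some genes, such as Ndufv1, and had similar changes in others, such as Ndufaf7 (-0.30 at 1057 and -0.20 at 1217). Among the 63 tested probes, 1 was called higher, the Ndufa8 probe, and 4 lower, against 4.79% and 18.4% of all 28649 probes. Each of the 4 lower probes belonged to a gene whose brightest probe was not called and had a change above 0. Of these, 3 are described here. Ndufv1 at 887 read 12.51, 12.94, 13.17 and 12.87 in controls and 11.90, 12.34, 11.76 and 10.72 in silenced cells (-1.19, SE 0.33, limma adjusted p 0.0296). Every silenced value was below every control. Blocking on the slide row gave a change of -1.12 with an adjusted p of 0.114, and 12 of 19 alternatives kept the call.

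The other two described were dim. Ndufv3 at 213, designed on a cDNA clone, read 6.34, 6.86 and 7.0 in controls 1, 2 and 4 and 6.0, 6.02, 5.69 and 5.49 in silenced cells, control 3 having no value in the fit. It was well above background on 4 control arrays and on 0 silenced arrays, which puts controls at least 1.48-fold higher (limma adjusted p 0.0300). This call was kept in 6 of the 15 alternatives that gave a value, and the slide row as a block brought the adjusted p to 0.0928. Ndufb2 at 197, designed on a separate Ensembl transcript, read 6.20, 7.23, 5.73 and 6.10 against 4.25, 4.94, 4.84 and 4.26. It was well above background on 2 control and 0 silenced arrays, which puts controls at least 1.11-fold higher (limma adjusted p 0.00624), and 17 of 18 alternatives kept the call.

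Within an array, the difference between the 3′ and the 5′ probe of a gene does not depend on a shift of the whole array. It was taken for the 12 complex I genes with a pair of probes more than 60 bases apart that were well above background on all 8 arrays, using the first and the last in genomic order along the transcript. The difference was greater in silenced cells in 10 of the 12, by a median of 0.32, against 73.7% of 3819 genes and a median of 0.45. Where both probes were designed on the same accession, it was greater in 6 of 6. The groups overlapped in Ndufaf5, Ndufaf7 and Ndufb5 of these, and the share of all genes for pairs on the same accession was not computed. Among the 12 pairs, the groups did not overlap in 5 that were higher, against 37.4% of all genes with such probes. Ndufv1, Ndufaf6, Ndufa3 and Ndufa10 were among these. The groups also did not overlap in 1 that was lower, against 8.43% (Ndufb8, whose far probe was designed on a predicted transcript). Each of the 6 pairs without overlap had an exact two-sided permutation p of 0.0286, or 0.0572 after Benjamini-Hochberg adjustment over the 12 pairs.

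For Ndufv1 the difference was 1.59, 1.30, 1.52 and 1.54 in controls and 2.86, 2.32, 3.19 and 3.58 in silenced cells, a rise of the ratio by 1.50 on the log2 scale. Silenced arrays were all above the controls. Ndufaf6, whose probes were designed on different transcripts, differed by 1.46, and Ndufa3 by 0.55. All 3 genes kept this direction under each of 19 alternatives. Within the upper and the lower slide row the values were 1.40 and 1.49 for Ndufv1, and 1.29 and 1.77 for Ndufaf6.

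**Figure D4:**
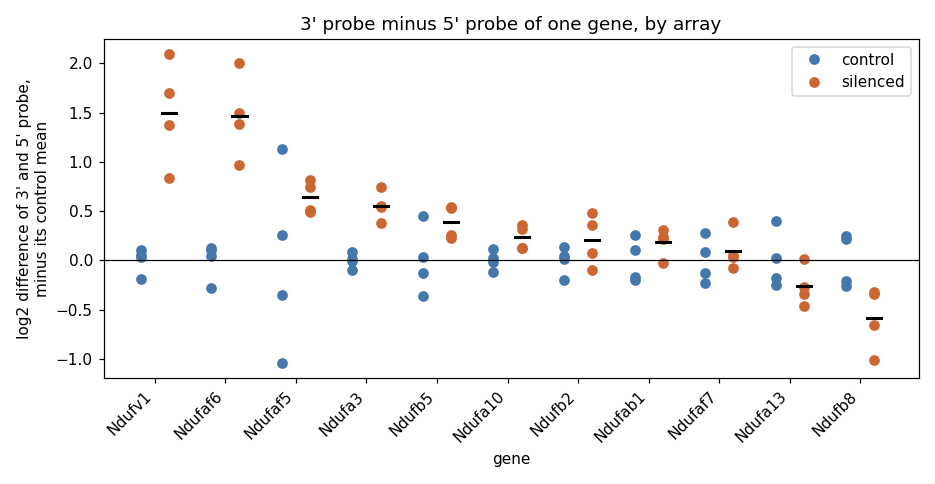
Log2 difference between the 3′ and the 5′ probe of one gene on each array (y), with the mean of the control arrays set to 0, for the complex I genes shown (x); points are arrays, 4 per group, and short bars are silenced means. Silenced arrays stand above all control arrays in Ndufv1, Ndufaf6, Ndufa3 and Ndufa10, and below them in Ndufb8.

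Probes that hold a polyadenylation signal, as printed above for Ndufv1, Ndufa3 and Ndufv3, carry a mark of 3′ ends. They made up 16 of 52 tested subunit probes (30.8%), against 14.9% of all tested probes. All 16 had a change above 0, from 0.09 to 0.57, with a median of 0.24. The median of all such probes tested was 0.17, and 61.9% of them were above 0. Of the 16, 0 were called higher and 0 lower, against 10.2% and 6.64% of all such probes. The overlapping Ndufa5 probes at 464 and 489 are both among the 16. The other 36 subunit probes had a median change of 0.05, with 18 above 0, 1 called higher and 4 lower. All tested probes without the signal had a median of -0.26, with 34.4% above 0, 3.84% called higher and 20.4% lower.

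Of the 7 complex I subunits encoded in mitochondrial DNA, 4 fell, 1 rose and 2 did not pass the test, with changes from -2.62 to 3.07, while 14.0% of all genes were called lower and 5.99% higher. ND5, a proton-pumping subunit at the tip of the membrane arm, read 13.97, 14.32, 13.40 and 14.25 in controls and 11.50, 11.69, 10.71 and 11.54 in silenced cells, a change of -2.62 (SE 0.29, limma adjusted p 0.000673). ND4L fell by 1.49 (SE 0.26, limma adjusted p 0.00445), from 15.11, 15.19, 14.29 and 15.25 to 13.70, 13.72, 13.22 and 13.27. In both, no silenced array reached a control.

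ND1, a subunit at the junction of both arms, read 15.01, 15.23, 14.32 and 15.11 against 13.58, 13.97, 13.21 and 13.33 (-1.39, SE 0.27, limma adjusted p 0.00611). ND2, a proton-pumping subunit, read 15.56, 15.71, 15.43 and 15.62 against 14.42, 14.47, 14.00 and 14.21 (-1.30, SE 0.19, limma adjusted p 0.00197). Neither gene showed overlap between the groups. ND4, the remaining pumping subunit of this set, read 14.72, 15.12, 14.72 and 14.92 against 14.72, 14.84, 14.41 and 14.20 and did not pass (-0.33, SE 0.22, limma adjusted p 0.304). Its direction turned when arrays were aligned by a shift to their 75th percentile (0.24, adjusted p 0.212).

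ND6, the only one of the 7 encoded on the light strand of mitochondrial DNA, rose. It read 8.47, 9.14, 9.19 and 9.02 in controls and 12.14, 11.90, 13.21 and 10.86 in silenced cells, a change of 3.07 (SE 0.43, limma adjusted p 0.00162) without overlap. The files place its probe from 13552 to 13611 on the mitochondrial genome and that of ND5 from 13402 to 13461. The probe named ND3 (0.31, limma adjusted p 0.386) was called higher in 3 of 19 alternatives, at 0.87 (adjusted p 0.00384) with the shift to the 75th percentile, 0.55 (0.0389) with array medians subtracted and 0.53 (0.0376) with cyclic loess. It is placed on chromosome 1, not on the mitochondrial genome, and whether it also reads nuclear copies of mitochondrial DNA was not tested. The 5 called genes kept their calls under all 19 alternatives, with changes from -2.81 to -2.18 for ND5 and from 2.68 to 3.46 for ND6, and the slide row as a block left the adjusted p at or under 0.0292.

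**Figure D5:**
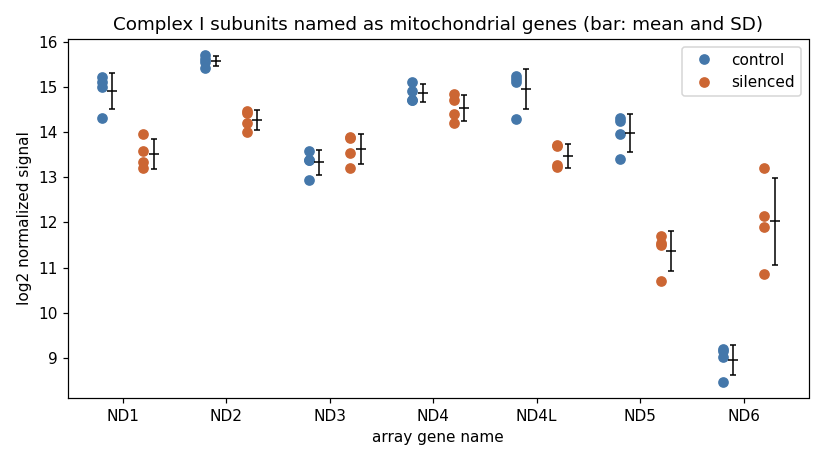
Log2 normalized signal (y) of the 7 complex I subunits named as mitochondrial genes (x) on 4 control and 4 silenced arrays; points are arrays, bars are means with SD. The silenced arrays lie below all controls for ND1, ND2, ND4L and ND5 and above them for ND6, and levels of different probes are not comparable.

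Genes that act beside complex I were read from lists of other ubiquinone reductases, coenzyme Q synthesis and iron-sulfur cluster assembly. Of 9 other enzymes that reduce ubiquinone, among them the 4 subunits of succinate dehydrogenase, 0 were called, and the median change was 0.07. Of 10 genes of coenzyme Q synthesis tested, 0 were higher and 3 lower, against 5.99% and 14.0% of all genes, and the median was -0.43 against -0.09. Coq5, a methyltransferase, read 10.45, 10.41, 10.90 and 10.66 in controls and 9.62, 9.64, 9.04 and 9.05 in silenced cells (-1.27, SE 0.23, limma adjusted p 0.00484). Coq9, a lipid-binding partner of Coq7, read 10.03, 10.18, 10.88 and 10.35 against 9.44, 9.64, 8.87 and 8.84 (-1.16, SE 0.27, limma adjusted p 0.0141). Pdss1, which builds the side chain, read 11.47, 11.71, 12.05 and 11.48 against 10.85, 10.91, 10.80 and 10.47 (-0.92, SE 0.21, limma adjusted p 0.0133). In all 3 every silenced array was below every control. Blocking on the slide row lost the calls of Coq9 (adjusted p 0.0738) and Pdss1 (0.0847), and keeping dim spots that of Coq9 (0.0568), while Coq5 kept its call under all 19 alternatives.

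Among 14 genes of iron-sulfur cluster assembly, 1 was called higher and 2 lower, shares close to the 5.99% and 14.0% of all genes, and the median of -0.06 was near the -0.09 of all genes. Hscb, a co-chaperone of cluster transfer, read 9.03, 9.45, 9.85 and 9.50 in controls and 10.71, 10.42, 11.41 and 10.18 in silenced cells (1.22, SE 0.30, limma adjusted p 0.0166). Glrx5, a cluster carrier, read 14.48, 14.57, 14.68 and 14.76 against 13.90, 14.06, 13.81 and 13.62 (-0.77, SE 0.19, limma adjusted p 0.0165). Lyrm4, a partner of the cysteine desulfurase Nfs1, read 9.99, 10.15, 10.28 and 10.22 against 9.52, 9.31, 9.41 and 8.52 (-0.97, SE 0.25, limma adjusted p 0.0212). In none of these did the groups overlap, but all 3 calls were lost with the slide row as a block, at adjusted p of 0.0670, 0.0733 and 0.105. That of Glrx5 was also lost with the replicate block (0.0677) and with a shift to the 75th percentile, which left a change of -0.19 (0.308), and Hscb, Glrx5 and Lyrm4 were called in 17, 14 and 15 of 19 alternatives.

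Promoters from 250 bases before to 50 after the start were available from RefSeq for 32 of the 36 subunits. The palindrome bound by NRF-1 (GCGC, any pair of bases, then GCGC) was found in 9 of them (28.1%), Ndufa8 among them, and in 7.0% of 27025 promoters. GCCATNTT, the YY1 motif, was found in 12 (37.5%), against 6.96%. CCGGAAG, a core of ETS factors, was found in 4 (12.5%), against 9.93%, and TATAAA in 4 (12.5%), against 15.7%. Both strands were searched, and matches describe the letters in these windows and not bound sites.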

How the data were processed

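RNA from 8 C2C12 cultures was hybridised to 8 one-colour arrays on 1 slide, read in 1 scan. Per the file headers, the deposited processed signal is a background-subtracted spot intensity on a linear scale, made with Feature Extraction 12.0.0.7, while the submitters' processing notes name 10.7.3.1. The flags, given as 0 or 1, are also as the authors deposited them. The authors' series table holds normalized intensity values of the same arrays and served as an alternative.

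Here log2 values of the deposited intensities were taken, spots not positive and significant or flagged as outliers were set to missing, arrays were quantile normalized and spots of a probe averaged. Of 56605 probes, 28649 had 3 or more values per group and entered a limma 3.58.1 fit (lmFit, eBayes, R 4.3.3) with no term but group. Adjustment was by Benjamini-Hochberg over all tested probes, with calls at 0.05. The brightest probe on average stood for its gene. A bound ("at least") compared the bright group's mean with a floor on each dim array: the probe's own signal or, if higher, the dimmest signal well above background. Single values were tested by exact permutation, given beside the adjusted limma p. The labels call the cultures biological replicates. Precision is limited by the number of arrays.

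Values in every array are given for genes with a called probe, the core subunits, and the highest and lowest change of each module and of the assembly factors, and for the called genes of the other lists. ND4, Ndufs5 and Ndufb9 were added after their values were seen. The members and lists were chosen with earlier results of these data known. Alternatives covered the normalization, background and mask, the replicate number and the slide row as blocks, the prior, the methods' t-test (two-sided, unequal variance, here with Benjamini-Hochberg adjustment), the choice of probe and each array left out. Values of 1 subunit are not reported here, though counts and medians include it. On simulated data, with 200 of 28649 probes changed, the fit found 75% of the 2 log2 changes and 10% of the 1 log2 changes. Of its 88 calls, 3 were false. In the data, 4.79% of tested probes were called higher and 18.4% lower, a larger share than was changed in the simulation. The Benjamini-Hochberg cutoff depends on that share, so these rates do not tell how often such changes were found on these arrays. Names follow the array design. Figures were drawn with matplotlib 3.10.9.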

Additional observations from a re-analysis of the deposited data

Results flagged for a closer look

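In 98 groups of 4 arrays, the highest or lowest value stood apart in 2, judged by its gap to the nearest array as a share of the group's range (Dixon's test). Chance marks about 1 group in 20. Ndufa4 stood at 10.82 in control replicate 3, against 14.37 to 14.53 on the other control arrays. Ndufs4 stood at 12.95 in silenced replicate 4, against 13.48 to 13.52 on the other silenced arrays.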

How the results depend on the processing

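No alternative run here called a subunit lower except the choice of the probe nearest the 3′ end, which called 1 lower (and 1 higher). That choice called 3895 of all genes in either direction, against 3877 as reported. Leaving aside the choice of probe, calls lower over all genes ran from 5.97% (slide row as a block) to 19.6% (spots well above background only). Subunits called higher numbered 30 with a shift to the 75th percentile, 23 with array medians subtracted, 21 with the authors' series table, 21 with no mask on dim spots, 19 with normexp, 16 with cyclic loess and 6 with a robust trended prior, and 0 with the slide row as a block or by the methods' t-test after Benjamini-Hochberg adjustment. Over all genes, calls higher made up 5.99% as reported and, in the order of these 9 settings, 29.8%, 21.5%, 21.2%, 19.7%, 18.8%, 22.1%, 8.19%, 2.41% and 2.58%. Leaving out 1 array gave 0 to 6 subunits, and 3.05% to 15.5% of all genes. Assembly factors called higher numbered 3 with the first 6 of these settings, and 0 to 2 when 1 array was left out. Of the assembly factors, 1 was called lower with cyclic loess, normexp, the robust prior or spots well above background only. In that order, 14.3%, 11.5%, 15.7% and 19.6% of all genes were called lower. Without control replicate 3, 1 assembly factor was called higher, and without silenced replicate 4, 2. The shift to the 75th percentile moved the median change to 0.79 for subunits and 0.31 for assembly factors, with 0.29 for all genes. Array medians moved the subunits to 0.48. The subunit median fell to 0.13 with the mean over all tested probes of a gene, against -0.17 for all genes. It was 0.14 without silenced replicate 3 (-0.18 for all genes) and 0.16 with the probe nearest the 3′ end (-0.09). The median of the assembly factors was also above 0 with array medians (0.19), the authors' table or no mask (0.13 each), normexp (0.12), cyclic loess (0.08) and the slide row (0.05), and ran from -0.15 to 0.10 with 1 array left out, being above 0 without control replicate 3 (0.05) or silenced replicate 4 (0.10). The cause of these shifts was not tested.

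Directions of uncalled genes turned. The shift gave 0.25 for Ndufs1, 0.12 for Ndufs4, 0.33 for Ndufa10 and 0.33 for Ndufa9. Ndufa9 stood at 0.11 with array medians subtracted, 0.03 with cyclic loess or no mask, 0.01 with normexp or the authors' table, and between -0.26 and 0.09 with 1 array left out. Ndufb3, at 0.00, gave 0.51, 0.24, 0.18, 0.16, 0.15 and 0.14 with the shift, array medians, cyclic loess, no mask, normexp and the authors' table, 0.04 with the slide row, and -0.15 to 0.13 with 1 array left out. Why single genes turned was not tested.

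Control and silenced cultures share replicate numbers, but the deviations of same-numbered cultures correlated by only -0.04, 0.19, 0.22 and 0.06, and 2 of 4 controls correlated best with their own number. With the replicate block, 0 subunits and 0 assembly factors were called, while 4.46% of all genes were called higher and 9.93% lower. Pvt1 kept its call throughout, from -3.14 to -1.99, and had no value in the authors' table. The methods' t-test, at an unadjusted p under 0.05, gave 7 subunits higher and 2 lower, against 9.95% and 19.6% of all genes.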
